A study of Mus musculus with 6 samples.

Results

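The BCL2 family apoptosis regulators described here are 10 genes picked by name from a table of 55487 genes: the pro-survival genes Bcl2, Bcl2l1 and Mcl1, the pore-forming effectors Bax and Bak1, and the BH3-only genes Bcl2l11, Bid, Bad, Pmaip1 and Bbc3. RNA-seq libraries were made from GFP+ bone marrow cells of femora and tibiae of C57BL/6 recipients, CD45.1+ and CD45.2-, that carried transplanted leukemia cells. The donor cells were CD45.2+, carried Mx1-Cre and Brd9fl/fl, and had been transduced with MLL-AF9 (MA9), the fusion oncogene of a mixed-lineage leukemia. Starting on the day after transplant, recipients were given 3 injections on alternate days of PBS or of pIpC at 20 mg/kg, and cells were collected 10 days after injection. There were 3 libraries in each group. The donor cells of both groups carried the floxed Brd9 alleles and the Cre transgene, so the groups differed by the injection. pIpC imitates double-stranded RNA, and the interferon it elicits switches on the Mx1 promoter that drives the Cre. An effect of interferon and an effect of Brd9 deletion cannot be told apart in this design, since no group received pIpC without floxed Brd9. The labels do not say that the libraries came from separate animals, so the p-values measure the spread between these libraries, which may be in part technical.

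Proteins of the BCL2 family decide whether the outer membrane of the mitochondrion stays closed. Pro-survival members bind and hold the other classes, the effectors BAX and BAK form pores that release cytochrome c, and the BH3-only proteins either occupy the groove of the pro-survival members or engage the effectors. In blood cells and myeloid leukemia, MCL1, BCL-2 and BCL-XL are the best known survival proteins, and BH3-only genes such as Pmaip1 and Bbc3 are classic targets of p53 and of stress signalling.

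Values are the deposited normalized counts, in which each library was divided by 1 size factor. Recovered reads numbered 19277439 to 22378154 in the PBS libraries and 22348517 to 23586722 in the pIpC libraries. Brd9, the targeted gene, had 1927, 1946 and 1632 normalized counts with PBS and 2036, 2263 and 2011 with pIpC. Its level did not fall under the pIpC label (log2 difference 0.20, SE 0.13, limma adjusted p = 0.259; exact permutation p = 0.1, 2-sided, the smallest that 3 against 3 allows). The targeted gene thus gives no support to the pIpC label, so pIpC stands here for the libraries labelled pIpC, and every direction rests on those labels. This count is over the whole gene, and loss of the floxed exons by themselves was not measured. PBS replicate 3 stood apart from the other PBS libraries by transcript length: its median log2 difference from them was 0.79 among genes of 38 to 1741 exonic bases and -0.61 among those of 6957 to 123179, and results that rest on it are given with and without it. Markers of blood cell types moved with the groups. Over all genes tested, 25.0% were higher and 20.4% lower with pIpC at a limma adjusted p under 0.1. Neutrophil maturation markers were higher in 12 of 12 genes, with summed counts of 20469 to 46882 with PBS and 2048253 to 2116115 with pIpC. Erythroid markers were higher in 11 of 11 (33.7 to 53.2 against 4949 to 7010, with Slc4a1 at 0 in every PBS library), B cell markers in 9 of 9 (138 to 307 against 1431 to 2562, with Ms4a1 at 0 with PBS) and T and NK cell markers in all 5 that could be tested of 10 (20.4 to 31.1 against 246 to 270, with Trac at 0 with PBS). Macrophage and monocyte markers were higher in 6 and lower in 3 of 10, with near-equal sums of 39247 to 39492 and 38540 to 42765. The MLL-AF9 leukemia genes Hoxa9, Hoxa10 and Meis1 were lower in 3 of 3, from 10125 to 10484 down to 470 to 527. The part of these shifts in the results on the BCL2 family was not tested. In bulk RNA, fewer cells of a type, less RNA per cell and a change of state in the GFP+ cells cannot be told apart.

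All 10 genes had a mean of at least 10 normalized counts and were tested. With pIpC, 3 of them were higher (Bcl2l1, Mcl1, Bak1), 4 were lower (Bax, Bid, Pmaip1, Bbc3) and 3 did not pass the test (Bcl2, Bcl2l11, Bad), at a limma adjusted p under 0.1. Over all 15020 genes tested, 45.3% passed, 25.0% as higher and 20.4% as lower, so the counts of calls by direction lie close to the background and are no result about the family. Where a change of at least 1.5-fold was also required, 0 members were higher and 3 were lower (Bax, Pmaip1, Bbc3), beside 38.4% of all genes in either direction, 21.5% higher and 17.0% lower. The median log2 difference of the 10 genes was -0.24, and that of all genes was 0.01. These medians were -0.14 and 0.02 without PBS replicate 3. The PBS and pIpC libraries did not overlap in 8 of the 10 genes, 4 with the pIpC libraries above and 4 with them below, beside 56.8% of all genes, 30.5% above and 26.3% below. Without PBS replicate 3 the calls at a limma adjusted p under 0.1 were 4 higher and 5 lower. Beside them, 65.4% of all genes were called in either direction, 35.1% higher and 30.3% lower. By class, with all 6 libraries, 2 of 3 pro-survival genes were called higher and 3 of 5 BH3-only genes lower. The other 1 and 2 did not pass, and the 2 effectors moved in opposite directions. These few calls stand beside the same 25.0% higher and 20.4% lower of all genes and are no result about a class.

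**Figure D1:**
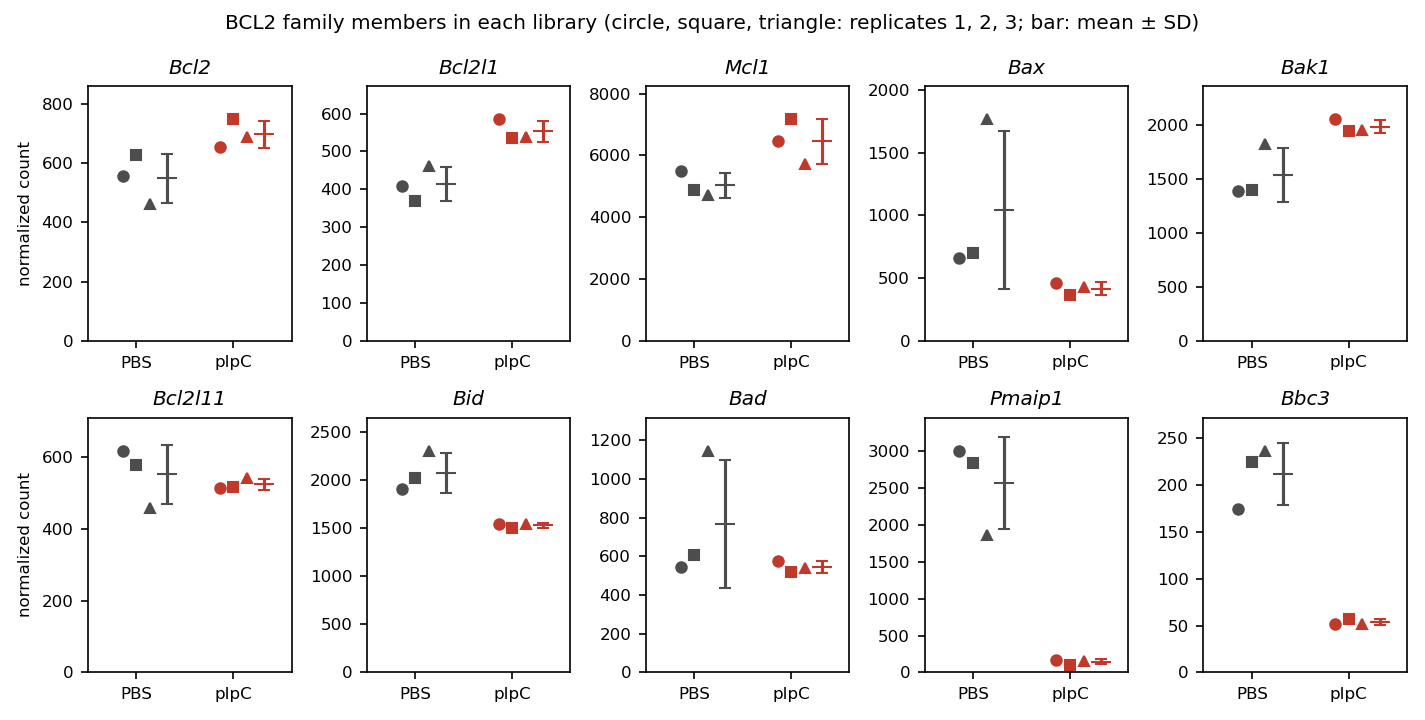
Normalized counts (y axis, linear, from 0) of each BCL2 family gene in the PBS and pIpC libraries, with replicates 1, 2 and 3 as circle, square and triangle and the mean ± SD beside them. Pmaip1 and Bbc3 separate furthest relative to their level, the triangle of PBS replicate 3 sits far above the other PBS libraries for Bax and Bad, and Bcl2l11 and Bad overlap between the groups.

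The plot of normalized counts by library shows that for each of the 3 pro-survival genes every pIpC library lay above every PBS library, by modest amounts. Mcl1, the short-lived protein on which many myeloid cells depend (chr3:95658788-95663176, plus strand, GRCm38), had 5493, 4886 and 4719 normalized counts with PBS and 6480, 7172 and 5717 with pIpC. The lowest pIpC library lay just above the highest PBS library. The mean was 5033 ± 407 with PBS and 6457 ± 728 with pIpC (SD, n = 3), a log2 difference of 0.36 with an SE of 0.14 (limma adjusted p = 0.0874). Bcl2l1, which encodes BCL-XL (chr2:152780668-152831728, minus strand), had 408, 370.5 and 461 with PBS against 585, 534 and 539 with pIpC. Its groups were well separated, and the log2 difference was 0.42 with an SE of 0.14 (limma adjusted p = 0.0568). This was the largest rise among the 10 genes with all 6 libraries, but that of Bak1 was as large or larger without PBS replicate 3 (0.51 against 0.50) and with each library's length trend removed (0.56 against 0.37), a setting added after the data were seen. Bcl2, the founding member of the family (chr1:106538178-106714274, minus strand), had 557, 628 and 463 with PBS and 656, 748 and 687 with pIpC. These groups did not overlap either, but the difference did not pass the test (log2 0.35, SE 0.16, limma adjusted p = 0.124). Without PBS replicate 3 it was 0.23 and passed (limma adjusted p = 0.0661), whereas with the length trend removed it was 0.10 and did not (limma adjusted p = 0.510). The calls of Mcl1 and Bcl2l1 lie near the threshold: that of Mcl1 was lost by edgeR on the recovered reads (adjusted p = 0.105), and that of Bcl2l1 was kept there (adjusted p = 0.0676).

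The 2 effectors changed in opposite directions. Bax, which moves from the cytosol to mitochondria to form pores (chr7:45461697-45466898, minus strand), had 660, 699 and 1765 normalized counts with PBS and 458, 364 and 429 with pIpC. All pIpC libraries lay below all PBS libraries, and PBS replicate 3 was far above the other PBS libraries. The log2 difference was -1.17 with an SE of 0.38 (limma adjusted p = 0.0513). Leaving out that library gave -0.71 (limma adjusted p = 0.000754), so the fall was smaller in size and clearer against the spread. Bax has 1576 exonic bases and is thus among the short genes that were raised in PBS replicate 3, where its log2 count was 1.38 above the other PBS libraries. With the length trend removed, the difference was -0.90 and still passed.

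Bak1, whose protein sits in the outer mitochondrial membrane at rest (chr17:27019810-27029009, minus strand), had 1389, 1395 and 1827 with PBS and 2055, 1947 and 1959 with pIpC. The pIpC libraries were all higher and close to each other, with a log2 difference of 0.38 and an SE of 0.14 (limma adjusted p = 0.0806). The difference was 0.51 and passed without PBS replicate 3. Quantile normalization gave 0.25 (limma adjusted p = 0.211), and the call was lost there. As a share of its exonic bases, 18.2% of Bak1 overlaps Ggnbp1 on the other strand, and the labels describe the libraries as unstranded, so reads of that stretch cannot be assigned to either gene. Bax shares 12.2% with Gm45808, a gene annotated on the same strand.

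**Figure D2:**
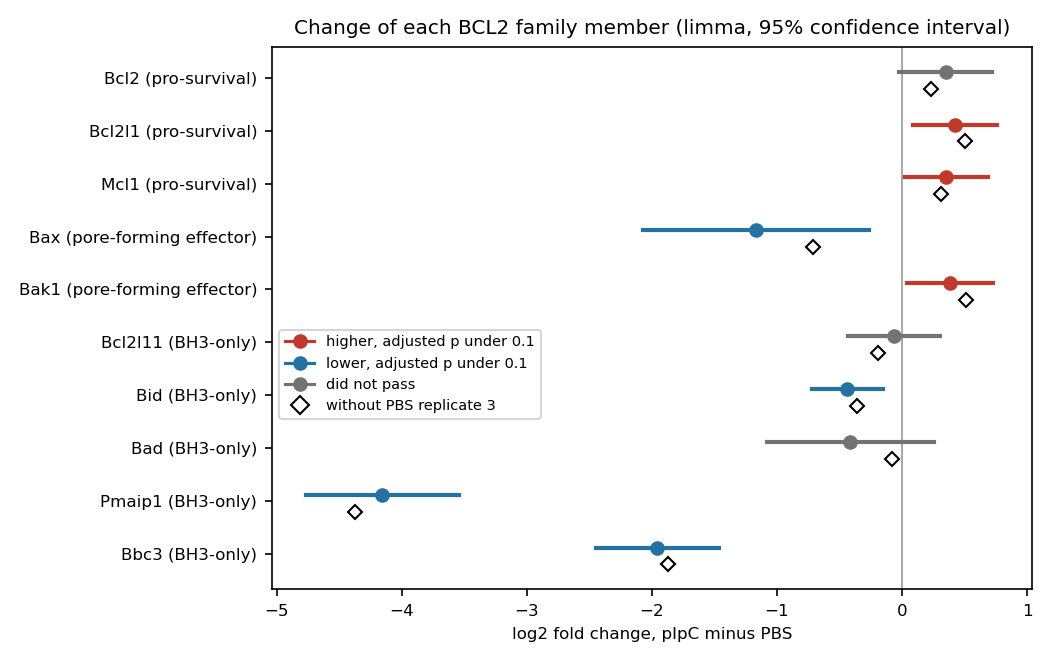
Log2 difference of each gene, pIpC minus PBS (x axis), with limma's 95% confidence interval as a bar, red for higher, blue for lower and grey for genes that did not pass, and an open diamond for the value without PBS replicate 3. Pmaip1 and Bbc3 lie furthest from 0 and hardly move without that library, whereas Bax and Bad move toward 0.

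The falls of greatest size were in BH3-only genes. Pmaip1 encodes NOXA, a BH3-only protein that binds MCL1 in preference to other partners and promotes its degradation. It had 3006, 2836 and 1857 normalized counts in the PBS libraries and 168, 106 and 155 in the pIpC libraries. The lowest PBS library was thus far above the highest pIpC library. The means were 2566 ± 620 and 143 ± 32.4 (SD, n = 3), a log2 difference of -4.15 with an SE of 0.26 and a 95% confidence interval from -4.76 to -3.54 (limma adjusted p = 5.77e-05), or 17.8-fold lower. It ranked 891 among the 15020 tested genes by the size of its difference. Bbc3 encodes PUMA, which binds every pro-survival member (chr7:16308393-16318205, plus strand). It had 174, 225 and 237 with PBS and 51.9, 57.2 and 51.3 with pIpC. Every pIpC library lay within a narrow range below the PBS libraries, with a log2 difference of -1.95, an SE of 0.21 and an interval from -2.45 to -1.46 (limma adjusted p = 0.000502), or 3.88-fold lower, and a rank of 2224. Pmaip1 and Bbc3 were also lower past the test under each of the 17 alternative fits, at log2 differences of -4.37 to -3.95 and -2.11 to -1.74.

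Bid, which caspase-8 cleaves to link death receptors to mitochondria (chr6:120891930-120916853, minus strand), had 1901, 2016 and 2303 with PBS and 1545, 1499 and 1540.4 with pIpC. Its groups did not overlap, and the log2 difference was -0.44 with an SE of 0.12 (limma adjusted p = 0.0293). Of its exonic bases 17.7% overlap Bcl2l13 on the other strand, a gene that was higher with pIpC (log2 difference 0.83). Bcl2l11, which encodes BIM, an activator of both effectors (chr2:128126038-128162547, plus strand), had 619, 580.0 and 459 with PBS and 515, 517 and 542 with pIpC. The groups overlapped, and the log2 difference was -0.063 with a 95% confidence interval from -0.43 to 0.30 (limma adjusted p = 0.771). Without PBS replicate 3 it was -0.19 (limma adjusted p = 0.0920) and with the length trend removed -0.27 (limma adjusted p = 0.0742), which pass as lower. Bad, which survival kinases keep inactive by phosphorylation (chr19:6941861-6951899, plus strand), had 548, 608 and 1146 with PBS and 577, 519 and 542 with pIpC. The PBS value of replicate 3 was again far above the others, the groups overlapped, and the difference of -0.41 had an interval from -1.08 to 0.26 (limma adjusted p = 0.293). Without that library the difference in Bad was -0.08. An overlap of 20.5% of its exonic bases with Gpr137 on the other strand limits the reading of Bad in the same way as for Bak1.

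Levels were compared between genes as normalized counts per kilobase of exon. Exonic bases were merged over all annotated transcripts of a gene, which can exceed the transcript expressed, so levels between genes are approximate. With PBS, Mcl1 was highest at 1472 ± 119, followed by Pmaip1 at 939 ± 227, Bax at 661 ± 398, Bak1 at 638 ± 104, Bid at 584 ± 58.3 and Bad at 300.02 ± 129. Bbc3 at 99.7 ± 15.7, Bcl2l1 at 90.1 ± 9.87, Bcl2l11 at 68.8 ± 10.3 and Bcl2 at 60.0 ± 9.03 were lower (SD, n = 3 each). In this order, the ranges of Pmaip1 and Bax, of Bax and Bak1, of Bak1 and Bid, of Bbc3 and Bcl2l1, and of Bcl2l11 and Bcl2 overlapped. The place of Bax rested on PBS replicate 3: its level was 419, 444 and 1120.2 in the 3 PBS libraries, and without the last its mean was 431, below Bak1 at 578 and Bid at 552. With pIpC the order was Mcl1 at 1889 ± 213, Bak1 at 826 ± 24.5, Bid at 430.4 ± 7.17, Bax at 265 ± 30.7, Bad at 213 ± 11.4, Bcl2l1 at 120.5 ± 6.11, Bcl2 at 76.1 ± 5.12, Bcl2l11 at 65.4 ± 1.91, Pmaip1 at 52.3 ± 11.9 and Bbc3 at 25.2 ± 1.54, with no overlap between neighbours. Mcl1 led in both groups, whereas Pmaip1 moved from the second to the ninth place.

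**Figure D3:**
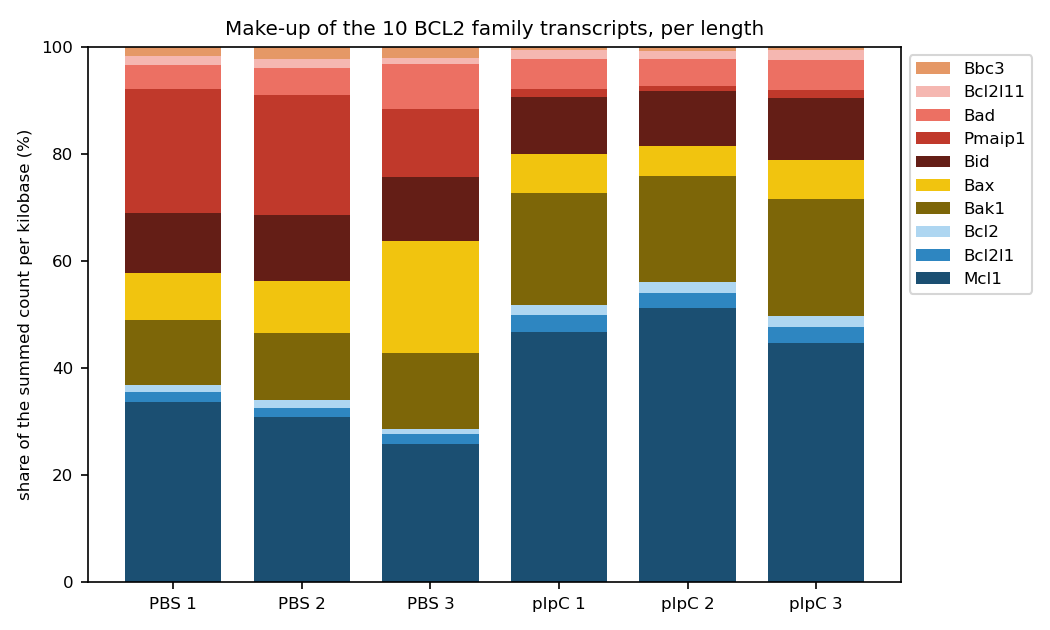
Share of each gene in the summed normalized count per kilobase of the 10 BCL2 family genes (y axis, percent), 1 stacked bar for each library, with pro-survival genes in blue, effectors in yellow and brown and BH3-only genes in red. The blue part spans 28.6% to 36.9% of the PBS bars and 49.8% to 56.1% of the pIpC bars, and the red band of Pmaip1 is thin in the pIpC bars.

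As a share of the summed count per kilobase of the 10 genes, the pro-survival genes made up 36.9%, 34.1% and 28.6% in the PBS libraries and 51.7%, 56.1% and 49.8% in the pIpC libraries. The BH3-only genes made up 42.2%, 43.7% and 36.3% with PBS and 20.0%, 18.5% and 21.2% with pIpC. Neither class overlapped between groups, while the effectors did, at 20.9% to 35.1% and 25.4% to 29.0%. Apart from PBS replicate 3, at 35.1%, the effectors were at 20.9% and 22.1% with PBS, below every pIpC library. Within the classes, Mcl1 alone took 25.8% to 33.8% with PBS and 44.7% to 51.3% with pIpC, and Pmaip1 12.7% to 23.1% against 0.951% to 1.52%. The stacked bars show that these 2 genes changed most in share. The shares have a fixed sum, so a fall of 1 gene raises the shares of the others. Per kilobase, the mean of Mcl1 went from 1472 with PBS to 1889 with pIpC. That of Pmaip1 went from 939 to 52.3. The level of Mcl1 per kilobase was 1.38 to 2.03 times that of Pmaip1, its binding partner, in the PBS libraries and 29.5 to 54.0 times in the pIpC libraries. The ratio of Mcl1 to Bcl2l11 moved far less, from 19.8 to 24.1 up to 24.8 to 32.6. These are ratios of RNA, and the balance of the proteins was not measured. The ratio of Bax to Bcl2, a common index of the balance between death and survival, was 6.88, 6.48 and 22.2 with PBS and 4.06, 2.83 and 3.63 with pIpC. It was highest in PBS replicate 3, the library in which the short Bax transcript was raised and the long Bcl2 transcript lowered. Bax stood at 0.726, 0.766 and 1.48 times Bak1 with PBS and at 0.340, 0.285 and 0.335 times with pIpC, so Bak1 was the more abundant effector in every pIpC library and in 2 of 3 PBS libraries.

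RefSeq start sites on GRCm38.p6 gave 15 promoter windows of 250 bases for 9 of the genes. Pmaip1 had no window, so its promoter was not searched. The windows of Bax and of Bbc3, which both fell, and that of Mcl1, the most abundant member, are shown because the first 2 carry a palindromic E-box, CACGTG, the core bound by MYC and related factors. Each window ends at the base before the annotated start. Sequences run 5′ to 3′ on the gene's strand, with the E-box and each GC box (GGGCGG or, on the other strand, CCGCCC) in capitals.
Bax, chr7:45466899-45467148, minus strand: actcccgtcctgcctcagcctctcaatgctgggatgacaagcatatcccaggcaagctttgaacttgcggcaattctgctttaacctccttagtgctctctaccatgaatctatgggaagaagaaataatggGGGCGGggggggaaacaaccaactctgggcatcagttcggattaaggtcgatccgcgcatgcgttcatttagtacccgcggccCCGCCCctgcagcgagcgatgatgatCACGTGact
Bbc3, the third of its windows, chr7:16310181-16310430, plus strand: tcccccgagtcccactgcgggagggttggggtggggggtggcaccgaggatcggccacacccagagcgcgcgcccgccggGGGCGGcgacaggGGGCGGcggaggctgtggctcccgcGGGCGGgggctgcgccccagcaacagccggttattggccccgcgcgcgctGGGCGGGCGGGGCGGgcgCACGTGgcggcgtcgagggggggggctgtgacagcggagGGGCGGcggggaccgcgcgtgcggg
Mcl1, chr3:95658471-95658720, plus strand: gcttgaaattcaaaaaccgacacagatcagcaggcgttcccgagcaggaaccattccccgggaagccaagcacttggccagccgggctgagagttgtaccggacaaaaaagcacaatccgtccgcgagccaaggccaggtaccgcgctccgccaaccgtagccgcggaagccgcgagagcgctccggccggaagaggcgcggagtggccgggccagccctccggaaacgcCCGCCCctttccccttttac
The E-box lay 9 bases before the start in Bax and 64 bases before it in Bbc3. Among all 32851 windows of this length, searched on both strands, 6.02% held CACGTG, as did 2 of the 15 windows of the family. With so few windows this count is no result about the family, and a part of MYC in these falls was not tested. GGGCGG was present in 10 of the 15 windows, in 7 of the 9 genes, and in 32.7% of all windows. CCAAT was found in 4 of the 15 windows (Bad, Bbc3 and Bcl2l11) and in 33.8% of all. TATAAA, TGATGCAA, TGACGTCA and the p53 response element, with a spacer of up to 13 bases, were in 0 of the 15 windows and in 12.4%, 0.791%, 1.55% and 0.0639% of all windows. TGATGCAA, TGACGTCA and the p53 pattern are so rare over all windows that their absence from 15 is no result about the family. The Bbc3 window was 81.6% G and C, that of Mcl1 64.4% and that of Bax 54.0%, beside a median of 52.4%.

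Across the 6 libraries, the genes nearest in pattern were sought among the 10487 genes with a mean of at least 100 normalized counts, by the root mean square difference of the log2 values after each gene's mean was removed. Nearest to Bcl2l1, the member with the largest rise with all 6 libraries (though not without PBS replicate 3, where Bak1 rose by 0.51 and Bcl2l1 by 0.50), were Cebpg at 0.0256, Rab32 at 0.0317 and Zfp68 at 0.0385. Nearest to Pmaip1, the member with the largest fall, were Gpnmb at 0.255, Fnbp1l at 0.281 and Adgre1 at 0.281. Adgre1 encodes the macrophage antigen F4/80 and went from 4307 ± 138 to 310 ± 44.5 normalized counts (SD, n = 3). Pmaip1 therefore had no neighbour as near as those of Bcl2l1.

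Other genes of the apoptosis pathway showed no common direction. The counts of each list stand beside 25.0% of all tested genes called higher and 20.4% called lower. Without PBS replicate 3 these shares were 35.1% and 30.3%. Of 15 other BCL2 family genes, 11 were tested, 3 were higher and 3 lower, with a median log2 difference of 0.02, and 4 were higher and 3 lower without PBS replicate 3 (median -0.03). Those that rose were Bcl2l13 (0.83), Bcl2l15 (2.96) and the mitophagy receptor Bnip3l (0.49), and those that fell were Bcl2a1a (-1.84), Bcl2l12 (-0.69) and Bnip3 (-0.56). Bcl2a1a has near-identical copies, Bcl2a1b and Bcl2a1d, among which reads may be split, and Bcl2l15 was scarce at 3.72 ± 1.01 with PBS and 35.2 ± 3.28 with pIpC. Bcl2l15 reached the minimum mean of 10 through its pIpC libraries. Bcl2l10 and Hrk had 0 counts in all libraries.

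Of 14 regulators of BCL2 family transcription and protein stability, 13 were tested, 4 were higher and 3 lower (median -0.15), and 5 and 5 without PBS replicate 3 (median -0.22). Foxo3, a transcription factor known to drive Bcl2l11 and Bbc3, rose by 1.01 on the log2 scale with an SE of 0.16 (limma adjusted p = 0.00315). Usp9x, a deubiquitinase of MCL1, rose by 0.73, Mdm2, the ubiquitin ligase of p53, by 0.55, and the ubiquitin ligase subunit Fbxw7 by 0.38. Trp53, which encodes p53, fell by 0.42 on the log2 scale (3320 ± 347 against 2472 ± 168; limma adjusted p = 0.0420), and E2f1 and the co-chaperone Bag3 also fell (-0.62 and -0.74). The lowest value of this list was that of Bag1 (-0.76), which did not pass the test. Without PBS replicate 3, which had 5865 counts of Bag1 against 2163 and 2251 in the other PBS libraries, it was -0.29 and passed (limma adjusted p = 0.00515).

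Of 12 inhibitor of apoptosis genes and their antagonists, 11 were tested, 2 were higher and 4 lower (median 0.09), and 3 and 5 without PBS replicate 3 (median -0.014). Birc3 (0.86) and Septin4 (1.89) rose, whereas Naip2, Naip5, Naip6 and Diablo fell. Septin4 was scarce, at 7.75 ± 5.52 with PBS and 27.1 ± 5.30 with pIpC (SD, n = 3). It reached the minimum mean of 10 through its pIpC libraries. Naip6 had 1936, 1803 and 614 normalized counts with PBS and 2.99, 7.15 and 3.87 with pIpC, a log2 difference of -7.90 with an SE of 0.51 (limma adjusted p = 6.84e-05). The Naip genes are close copies of each other, so the split of reads among them is uncertain. Of 10 death receptor genes and adaptors, 9 were tested, 4 were higher (Tnfrsf1b at 1.45, Cflar at 0.74, Ripk1 at 0.62 and Tnfrsf1a at 0.45) and 1 lower (Fadd at -0.44), with a median of -0.20. With PBS replicate 3 left out there were 4 and 2, the median turned to 0.09, and Cflar was at 0.45. Of 9 genes of the outer mitochondrial membrane and released factors, 1 was higher, the fission enzyme gene Dnm1l (0.42), and 0 were lower (median -0.18), and 3 and 0 without PBS replicate 3 (median -0.0091), where Dnm1l was at 0.28. The highest and lowest values of that list, Mfn2 at 0.66 and Endog at -1.08, did not pass the test. When that library was left out, Mfn2 was at 0.28 and passed (limma adjusted p = 0.00463), and Endog was at -0.48 and did not.

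**Figure D4:**
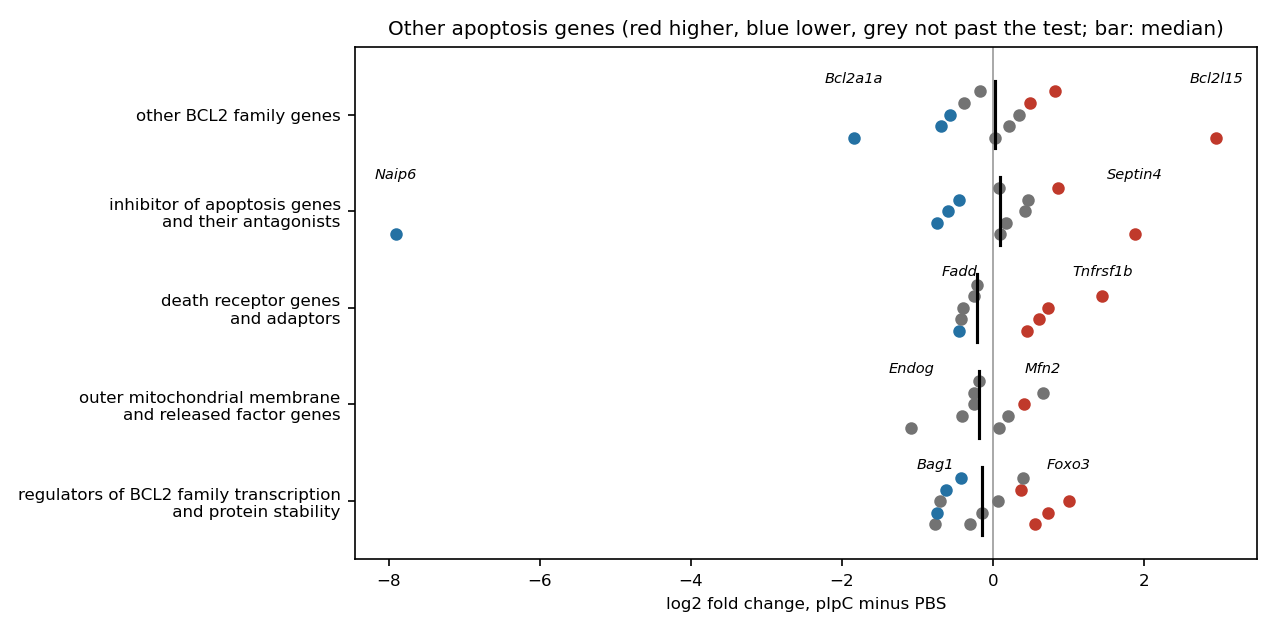
Log2 difference, pIpC minus PBS (x axis), of each tested gene in 5 lists of the apoptosis pathway (y axis), red for higher, blue for lower and grey for not past the test, with a bar at each list's median and the highest and lowest gene named. The medians lie between -0.20 and 0.09, and Naip6 at -7.90 and Bcl2l15 at 2.96 lie furthest out.

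The plot of the pathway lists shows medians near 0, whose signs change in 3 of the 5 lists without PBS replicate 3, with genes on either side, against which the falls of Pmaip1 (-4.15) and Bbc3 (-1.95) can be read. Only Naip6 among the tested genes of these 5 lists had a larger fall than Pmaip1.

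**Figure D5:**
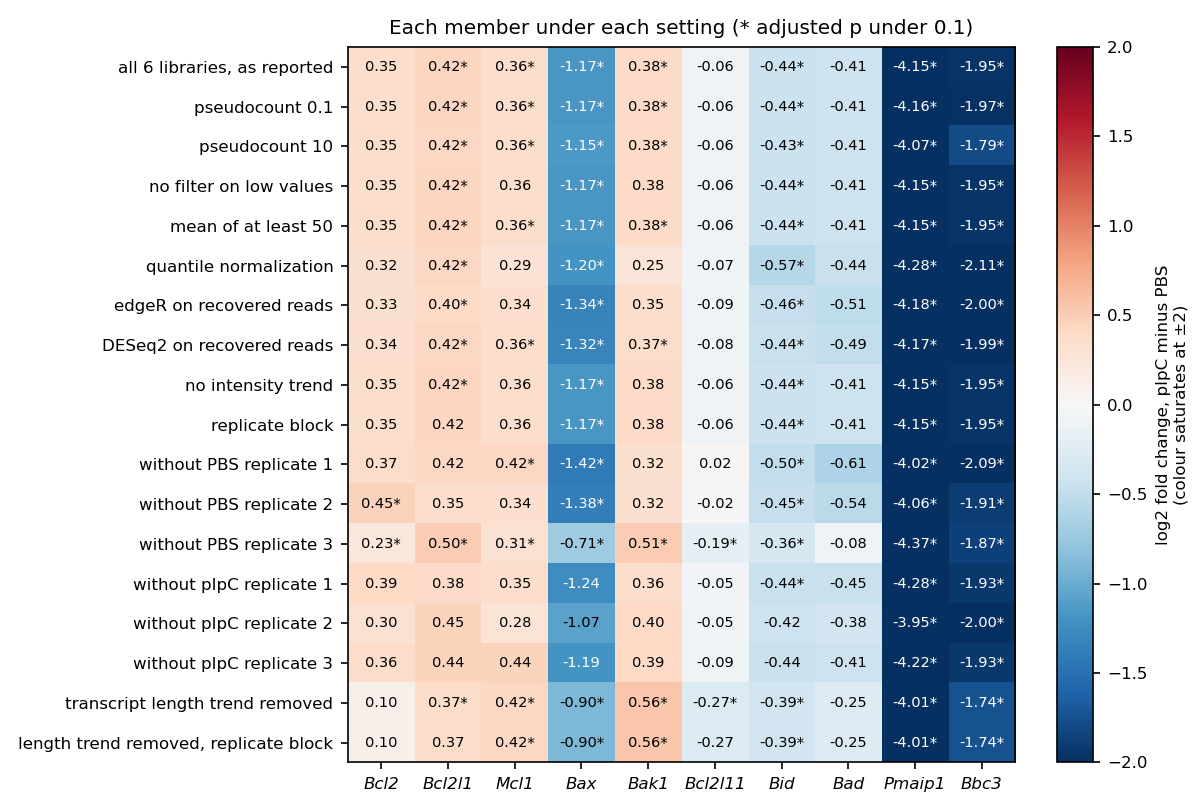
Log2 difference, pIpC minus PBS, of each BCL2 family gene (columns) under each of 18 settings (rows), with the value printed in the cell, blue for lower and red for higher, and an asterisk where the adjusted p was under 0.1. Pmaip1 and Bbc3 carry an asterisk in every row, Bid in 16 of 18, and Bad in 0.

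The grid of settings shows which calls are firm. Bid kept its call in 15 of 17 alternatives, and Bax in 14 of 17, being lost when any of the pIpC libraries was left out (limma adjusted p = 0.117 to 0.159). The calls of the genes that rose were less firm: Bcl2l1 passed in 10 of 17 alternatives, Mcl1 in 8 and Bak1 in 7. Their differences stayed above 0 in each, at 0.35 to 0.50, 0.28 to 0.44 and 0.25 to 0.56 on the log2 scale. Bcl2 passed in 2 of 17, and Bcl2l11 in 2 of 17 as lower.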

How the data were processed

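Poly(A)-selected RNA libraries of 6 samples, 3 PBS and 3 pIpC, were analysed, grouped by their titles. The authors deposited 1 table of gene counts normalized by 1 size factor per library, treated here as a signal. The processing notes name HISAT2 2.2.1, SAMtools, Subread, featureCounts, edgeR and GRCm38, whereas the paper's methods name STAR, RSEM and mm10. The labels call the libraries unstranded and the paper calls them stranded, and the paper describes c-Kit+ cells where the labels give GFP+ cells. All values came out as whole reads after division by a library's smallest step (tolerance 0.01), and these reads served the count tests. Table IDs were matched to symbols for 55141 of 55487 genes, and exon lengths came from GENCODE on GRCm38. All 6 columns were used.

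Groups were compared with limma 3.58.1 in R 4.3.3 (trend on mean expression, no block for replicate number) on log2 values after adding 1, over 15020 genes averaging 10 or more. Genes passed at an adjusted p (Benjamini-Hochberg) under 0.1; differences on this scale understate those of low genes. Alternatives were pseudocounts of 0.1 and 10, a minimum mean of 50 or none, quantile scaling, no trend, a replicate block, each library left out, an adjusted p under 0.05, a 1.5-fold change, edgeR 4.0.16, DESeq2 1.42.0 and, added after the data were seen, removal of each library's trend with length. On simulated data of 15020 genes, 100 of them changed by each size, limma recovered 34% of log2 changes of 1 and 88% of changes of 2. Of its calls there, 6.15% were unchanged genes. The changed share was far below that called in the data, so these recoveries need not hold for them.

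The genes named are all members and Brd9, called genes and the highest and lowest gene of each pathway list shown, and the 3 genes nearest to the member with the largest rise and to that with the largest fall. Some genes of the lists are not reported here. The members and lists were chosen with earlier results of these data known.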

Additional observations from a re-analysis of the deposited data

How the results depend on the processing

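Of 170 comparisons of the 10 genes with their reported values over 17 alternatives, 134 kept their direction and their side of the threshold, 31 lost the call, 4 gained it and 1 reversed. The reversal was in Bcl2l11, which ranged from -0.19 to 0.023 with each library left out, the last without PBS replicate 1 (limma adjusted p = 0.924). Of the 10 genes, 7 were called as reported, 3 at an adjusted p under 0.05 (35.7% of all genes) and 3 at a change of at least 1.5-fold (38.4%). Leaving out each library in turn gave 2 to 9 called genes: 5, 5 and 9 without PBS replicates 1, 2 and 3, and 3, 2 and 2 without pIpC replicates 1, 2 and 3, beside 30.5% (pIpC replicate 2) to 65.4% (PBS replicate 3) of all genes. The cause was not tested. The count over all genes was 6808, and 4551 to 9829 with each library left out. Brd9 ranged from 0.04 to 0.24 over the alternatives. Under quantile normalization the median over all genes was -0.12, and 44.3% of calls were upward in place of 55.1%; relative to that median each of Bcl2l1, Mcl1 and Bak1 stayed above 0.

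Same-numbered libraries deviated from their group means with correlations of -0.117, 0.143 and 0.041. Deviations from a mean of 3 libraries depend on each other, and PBS replicate 3 stood apart. These correlations therefore cannot decide whether the replicate numbers pair the libraries. With a replicate block, 4 of the 10 genes were called, beside 40.6% of all genes: Bcl2l1, Mcl1 and Bak1 no longer passed (limma adjusted p = 0.135, 0.173 and 0.152). Not every library correlated best with its own number. On simulated data with 3 libraries a group, changes of log2 1 were mostly missed. Only 100 of 15020 genes were given that change there, whereas 45.3% of genes were called here. That recovery thus need not hold for these data. The genes that did not pass are not shown to be equal.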

Other observations

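Among the other members, the nearest genes in pattern across the 6 libraries, picked out after their values were seen, were Nbn at a root mean square log2 difference of 0.0188 and Ddx39b at 0.0290 for Bid, and Mtdh at 0.0130 for Bcl2l11.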
